A study of Mus musculus with 8 samples.

Results

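The comparison described here is what opsonised red cells changed in mouse macrophages that also received interferon gamma (IFNγ). It sets the 2 arrays of cells given both stimuli against the 2 arrays of cells given IFNγ alone, which are 4 of the 8 arrays of the series. The cells were macrophages grown from C57BL/6 bone marrow in L929-conditioned medium, which supplies M-CSF and was common to every group. Cells in the combined group received recombinant IFNγ at 10 ng/ml for 6 h, together with IgG2a-opsonised sheep erythrocytes in a 10 to 1 excess over macrophages. Opsonised here means that the red cells carried a mouse antibody of the IgG2a class, made by a hybridoma, on their surface. Cells in the IFNγ group received the cytokine at the same concentration for 6 h and no red cells. The remaining groups received opsonised cells without IFNγ, or no stimulus, with 2 arrays each, and are used here to ask whether the change depends on IFNγ. Opsonised cells without IFNγ were given at the same 10 to 1 excess for 6 h. The unstimulated cells had no stimulation period, unlike the 6 h of the IFNγ group. Whether they were harvested together with the 6 h groups is not given here. Any effect of that time on the changes without IFNγ, or on the interaction described below, was not tested. No group received uncoated red cells, so effects of the antibody coat and of the red cell itself cannot be told apart.

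Fcγ receptors bind the constant part of IgG and, through the shared γ chain Fcer1g, start kinase signalling that drives phagocytosis and cytokine transcription. FcγRI, encoded by Fcgr1, binds IgG2a with high affinity and is itself raised by IFNγ in macrophages. A macrophage that digests a red cell has to break down hemoglobin, cut the heme ring with heme oxygenase and store or export the iron. Heme and oxidants release the transcription factor NRF2 from its inhibitor KEAP1, and heme also removes the repressor BACH1 from many of the same genes. IFNγ prepares macrophages for microbial killing and antigen presentation.

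Transcripts were read on Illumina MouseRef-8 v2.0 BeadChips as fluorescence intensities, deposited on a linear scale with background kept and with nearly the same distribution on every array, as quantile normalisation leaves it. A background floor of 205.3 was used, and 8826 features (8158 named genes and 668 unnamed probes) lay above it on both arrays of at least 1 group. Changes are log2 differences of the combined arrays minus the IFNγ arrays, fitted by limma over all 8 arrays, and values after ± are standard errors with n = 2 arrays per group. A change was called at a Benjamini-Hochberg adjusted p below 0.05, and "at least" marks a fold bounded by the floor because both arrays of the dimmer group lay below it. The labels do not say that replicates were separate cultures or mice, and the p-values therefore reflect array-to-array spread that may be technical. Named changes given without a p were called, and those that were not have their adjusted p or a plain statement beside them. Replicate arrays correlated at 0.9918 to 0.9936, and the combined and IFNγ arrays at 0.982 to 0.9825.

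All 7 macrophage markers with a named probe lay above background on all 8 arrays. Their summed intensity was 40610 and 40810 with both stimuli and 40320 and 38670 with IFNγ alone, most of it from Lyz2. Of these 7 markers Mertk and Cd14 were called as higher and Fcgr1 as lower, and without IFNγ replicate 2 only Fcgr1 was called. Of 7 erythroid markers with a probe, 0 passed the filter, and their summed intensity was 1216 and 1285 with both stimuli and 1260 and 1225 with IFNγ alone. Of 9 T and NK cell markers 0 passed, with sums of 1557 and 1570 with both stimuli and 1594 and 1606 with IFNγ alone. Of the neutrophil markers 5 of 9 passed and 0 were called, with sums of 4577 and 4685 with both stimuli and 3913 and 4203 with IFNγ alone. This higher neutrophil sum came mainly from S100a8, singled out after its values were seen, at 2455 and 2540 with both stimuli and 1904 and 2114 with IFNγ alone, and its part in the changes below was not tested. Of 6 B cell markers 2 passed, and Cd79b was lower, at 262 and 294 with both stimuli and 371 and 368 with IFNγ alone, a call lost without combined replicate 1 or either IFNγ replicate (adjusted p up to 0.13), while Cd79a was below the floor on all arrays. Dendritic, mast cell and fibroblast lists each had 1 marker pass and 0 called.

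Adding opsonised cells to IFNγ changed 1327 of 8826 features (15.0%), of which 617 (6.99%) rose and 710 (8.04%) fell. Increases were the larger changes: 76 features rose at least 2-fold and 42 fell as far. The arrays of both groups did not overlap for 55.3% of all features, called or not. Leaving out IFNγ replicate 1 lowered the number of calls to 725 and leaving out IFNγ replicate 2 lowered it to 809, and 699 and 775 of these were among the 1327. Of 179 named genes that passed, 117 passed under every alternative setting, and all 69 that changed at least 2-fold did so. Where a list below has 0 called in a direction, an unadjusted p under 0.05 also gave 0 for the NRF2, heat shock, proteasome, NF-κB and immediate early lists (lower) and for the replication, mitosis and histone lists (higher).

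**Figure D1:**
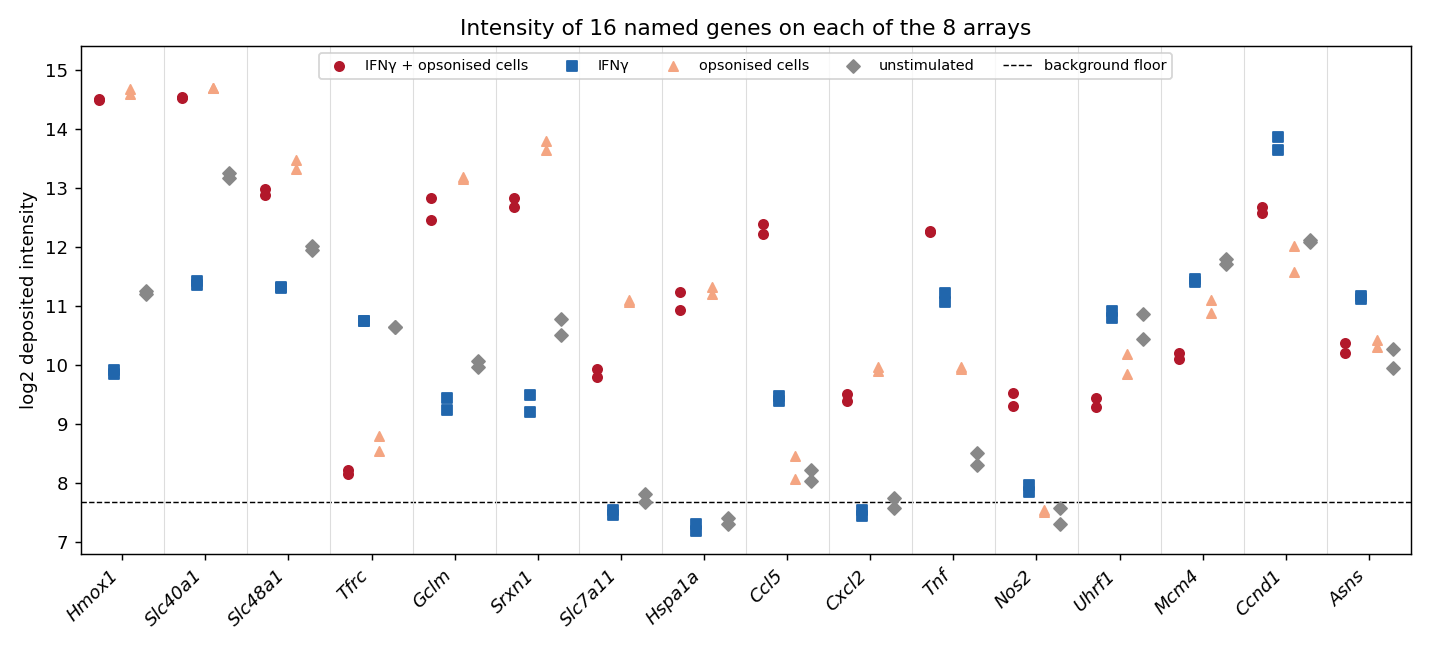
Log2 deposited intensity of 16 named genes on each of the 8 arrays, with IFNγ plus opsonised cells as circles, IFNγ as squares, opsonised cells as triangles and unstimulated cells as diamonds, and the background floor dashed. The combined arrays lie above both IFNγ arrays for Hmox1, Gclm and Ccl5 and below them for Tfrc, Uhrf1 and Ccnd1.

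Genes that handle heme and iron included the largest increase and the largest decrease of the comparison. Hmox1, which encodes the oxygenase that opens the heme ring, gave 23330 and 22920 with both stimuli and 919 and 969 with IFNγ alone. The combined arrays were near the top of the scale and the IFNγ arrays far below, a log2 change of 4.62 ± 0.10 or 24.5-fold (adjusted p = 3.79e-20). Slc40a1 encodes ferroportin, the exporter that releases iron from macrophages, and gave 23590 and 23750 with both stimuli and 2601 and 2757 with IFNγ alone (3.14 ± 0.09). Slc48a1, whose product carries heme out of the phagolysosome, gave 7527 and 8109 with both stimuli and 2518 and 2565 with IFNγ alone (1.62 ± 0.10). Spic, whose product directs the development of macrophages that recycle iron, gave 559 and 469 with both stimuli and 169.6 and 164 with IFNγ alone. Both IFNγ arrays were below the floor for Spic, so it rose at least 2.49-fold, and its other probe showed a smaller change of 0.43. Blvrb, a biliverdin reductase gene, rose by 0.91 ± 0.10.

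In the opposite direction, Tfrc gave 286 and 299 with both stimuli and 1707 and 1710 with IFNγ alone. It encodes the transferrin receptor that takes up iron, and its combined arrays lay far below the IFNγ arrays (-2.55 ± 0.12, adjusted p = 1.73e-13). Of the 21 tested members of the heme and iron list 7 rose, 2 fell and 12 did not pass, and the list's median was 0.08 against -0.01 over all features. The repressor gene Bach1 was measured at -0.27 ± 0.14 (adjusted p = 0.197). Without any 1 array 6 to 7 members were higher and 2 lower.

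Of 22 tested members of the NRF2 oxidative stress list 16 rose (72.7%), 0 fell and 6 did not pass, with a median log2 change of 0.66. Srxn1, which encodes sulfiredoxin, an enzyme that repairs oxidised peroxiredoxins, gave 6518 and 7235 with both stimuli and 591 and 716 with IFNγ alone (3.40 ± 0.12). Gclm, the modifier subunit gene of the enzyme that limits glutathione synthesis, gave 5628 and 7303 with both stimuli and 603 and 694 with IFNγ alone (3.31 ± 0.12). Both genes had combined arrays about an order of magnitude above the IFNγ arrays. Sqstm1, the gene of the autophagy adaptor p62, gave 12780 and 12780 with both stimuli and 2231 and 2117 with IFNγ alone (2.56 ± 0.10). Slc7a11 encodes the cystine importer that feeds glutathione synthesis, and gave 971 and 884 with both stimuli and 186 and 176 with IFNγ alone, an increase of at least 4.51-fold. Osgin1, a growth inhibitor gene induced by oxidative stress, rose by 1.73 ± 0.12. Esd, the esterase D gene, rose by 1.49 ± 0.13, although its 4 probes ranged from 0.18 to 1.49. Leaving out 1 array left 14 to 16 members called as higher. The genes of the pathway's regulators did not pass: Nfe2l2, which encodes NRF2, was at -0.19 ± 0.14 and Keap1 at 0.14 ± 0.12 (adjusted p = 0.434 and 0.495).

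NRF2 binds a short sequence called the antioxidant response element, and 60 bases around its core in the promoters of 3 of the genes above are shown. The core letters TGANNNNGC, searched on both strands, are in capitals, and windows run 5′ to 3′ in the direction of the gene, from RefSeq on GRCm38.p6.
Gclm: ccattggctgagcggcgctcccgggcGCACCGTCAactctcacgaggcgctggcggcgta
Srxn1: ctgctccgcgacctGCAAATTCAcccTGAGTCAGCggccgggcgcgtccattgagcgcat
Slc7a11: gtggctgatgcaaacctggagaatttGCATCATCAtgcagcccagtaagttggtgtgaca
The windows are chr3:122245397-122245456 (+ strand) for Gclm, chr2:152105453-152105512 (+ strand) for Srxn1 and chr3:50443625-50443684 (- strand) for Slc7a11. Srxn1 holds 2 matches here. The windows of Sqstm1 and Nqo1 were also searched and held 0 matches, and that of Osgin1 held 1. The core is common: 41.3% of all 32851 promoter windows, which run from 250 bases before the start to 50 after it, hold it, as do 42.6% of those of the genes tested. Of the 25 windows of NRF2 list members 56% held it, and of the 68 windows of genes that rose at least 2-fold 42.6% did. The share was not particular to the NRF2 list, with 61.5% for the heat shock list and 56% for the proteasome list described below. The mitosis, inflammatory, replication and NF-κB lists had 47.5%, 41.7%, 35.8% and 32.1%. A match describes these letters and is not evidence of binding.

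Of 11 tested members of the heat shock list 6 rose, 0 fell and 5 did not pass. Hspa1a, the gene of a stress-inducible HSP70, gave 2403 and 1941 with both stimuli and 146 and 158 with IFNγ alone. Both IFNγ arrays were at background and both combined arrays were far above it, so the increase was at least 10.5-fold (adjusted p = 2.64e-16). Hsph1, which encodes a nucleotide exchange partner of HSP70, rose by 1.01 ± 0.12, and Hspa8, the gene of the constitutive HSP70, by 0.41 ± 0.09. The list's median was 0.37, and 0.06 with no filter on dim probes. The count of 6 depended on single arrays, with 4 without combined replicate 1, 4 without combined replicate 2, 3 without IFNγ replicate 1 and 5 without IFNγ replicate 2, where combined replicates are the arrays of cells given both stimuli.

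The Hspa1a promoter holds the heat shock element core, GAANNTTC, which is its own reverse complement and is in capitals here.
Hspa1a: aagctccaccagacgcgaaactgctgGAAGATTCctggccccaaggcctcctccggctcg
This window is chr17:34972227-34972286 (- strand). The core was found in 7.86% of all promoter windows, in 5.93% of those of tested genes and in 8 of 13 windows of the heat shock list (61.5%). It was in 16.2% of windows of genes that rose at least 2-fold and in 18.4% of those of genes that fell as far.

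The proteasome degrades ubiquitin-tagged proteins, and its subunit genes rose together by modest amounts. Of 29 tested subunit genes 18 rose (62.1%), 0 fell and 11 did not pass, and the median was 0.40. The lid subunit genes Psmd14 and Psmd11 gave 0.84 ± 0.14 and 0.76 ± 0.15. Psmd14, the deubiquitinase of the lid, read 727 and 992 with both stimuli and 449 and 502 with IFNγ alone. Psmd5, a base assembly chaperone gene, gave 540.3 and 489.9 with both stimuli and 302 and 273 with IFNγ alone (0.84 ± 0.13), Psmc1, an ATPase subunit gene of the base, 0.76 ± 0.11, and Psmb5, which encodes the chymotrypsin-like catalytic subunit, 0.70 ± 0.13. None of these increases reached 2-fold. Leaving out 1 array left 12 to 17 subunit genes called, lowest without IFNγ replicate 2. Subunits of the ribosome and of the respiratory chain did not move with them: limma called 0 of 56 cytosolic ribosomal protein genes (median -0.02), of which 2 were higher and 5 lower at an unadjusted p under 0.05, and at most 2 without any 1 array. Of 68 oxidative phosphorylation genes 2 rose and 2 fell (median -0.02), with 0 to 4 and 0 to 3 without any 1 array.

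**Figure D2:**
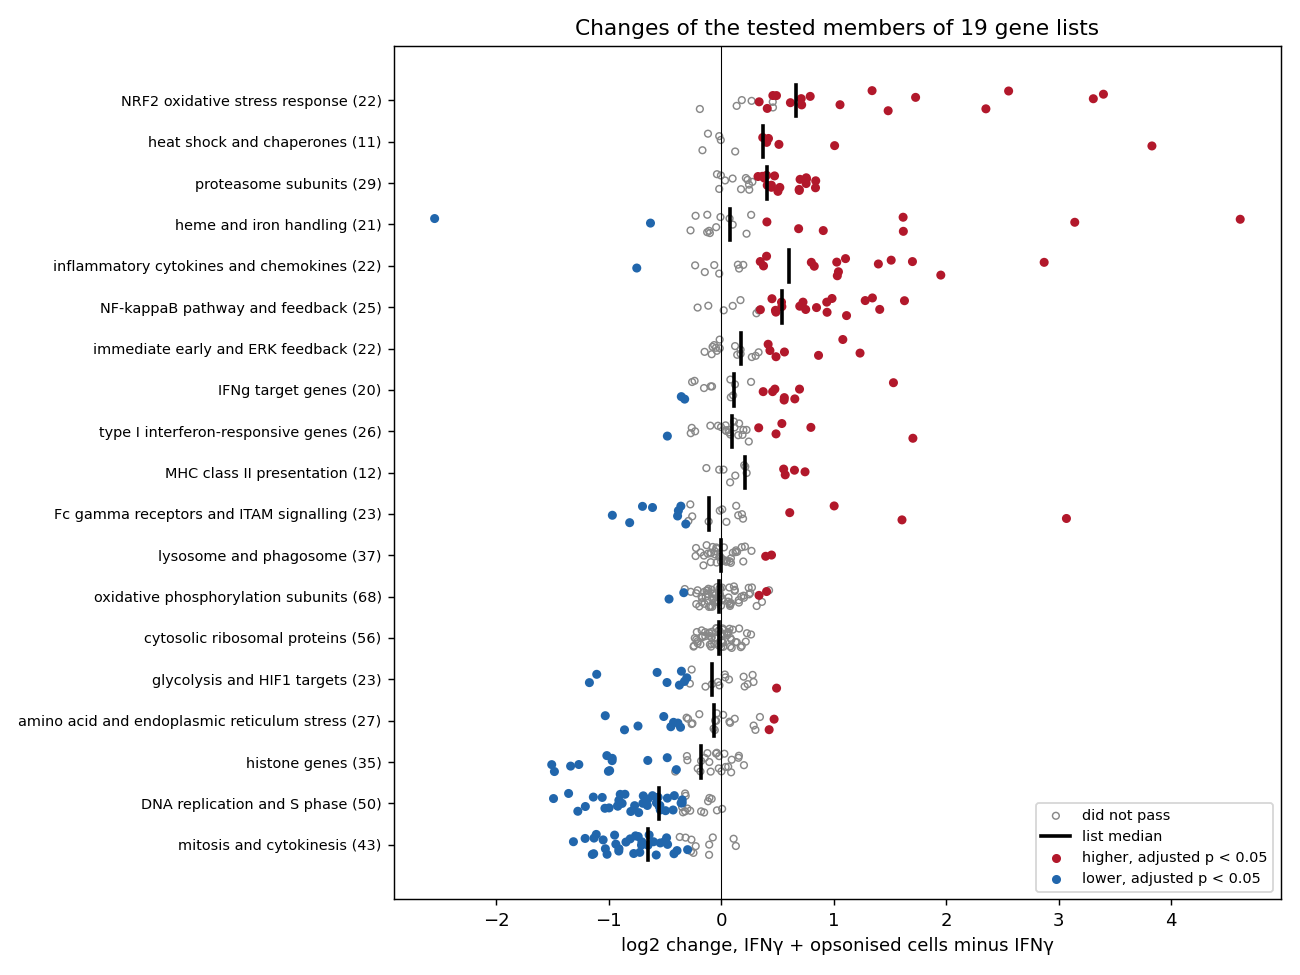
Log2 change (IFNγ plus opsonised cells minus IFNγ) of each tested member of 19 gene lists, with the number tested in brackets, called members filled, uncalled members open and list medians as black bars. The NRF2, proteasome, inflammatory and NF-κB lists have positive medians of 0.66, 0.40, 0.60 and 0.54, and the replication and mitosis lists have negative medians of -0.56 and -0.65.

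Most tested genes of inflammatory mediators were higher with both stimuli than with IFNγ alone. Of 22 tested cytokine and chemokine genes 14 rose (63.6%), 1 fell and 7 did not pass, with a median of 0.60. Ccl5, the gene of a chemokine that draws T cells and monocytes, gave 4785 and 5321 with both stimuli and 669.6 and 709 with IFNγ alone. The combined arrays exceeded the IFNγ arrays by 2.87 ± 0.13 on the log2 scale, 7.32-fold. The neutrophil attractant genes Cxcl1 and Cxcl2 also rose. Cxcl1 gave 726 and 729 with both stimuli and 239 and 209 with IFNγ alone (1.70 ± 0.12), and Cxcl2 gave 728 and 668 with both stimuli and 187 and 174 with IFNγ alone, at least 3.40-fold. Nos2, which encodes the inducible nitric oxide synthase, gave 631 and 738 with both stimuli and 229.6 and 249.7 with IFNγ alone (1.51 ± 0.12). Tnf gave 4861 and 4906 with both stimuli and 2153 and 2391 with IFNγ alone (1.11 ± 0.11), and the macrophage chemokine gene Ccl3 gave 1835 and 1794 with both stimuli and 718 and 660.1 with IFNγ alone (1.40 ± 0.11). For each of these genes both combined arrays lay above both IFNγ arrays. Ccl3, however, read 3204 and 2648 with opsonised cells alone and 2161 and 2097 in unstimulated cells, all above its combined arrays. With opsonised cells alone Cxcl1 read 978.5 and 861.3 and Cxcl2 read 951.2 and 1004, above their combined arrays. Their unstimulated arrays lay below the combined arrays. Ccl5 and Nos2 were lower on every array without IFNγ, as given below. Levels of Tnf without IFNγ are not given here.

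Of 25 tested genes of the NF-κB pathway and its feedback 18 rose (72.0%), 0 fell and 7 did not pass, with a median of 0.54. Vcam1, an adhesion molecule gene, gave 586 and 651 with both stimuli and 184 and 216 with IFNγ alone (1.63 ± 0.12). Cd40, the gene of a costimulatory receptor, gave 16440 and 16510 with both stimuli and 7164 and 6417 with IFNγ alone (1.28 ± 0.11). The feedback genes Nfkbie, which encodes an inhibitor that holds NF-κB in the cytoplasm, and Tnfaip3, which encodes the ubiquitin-editing enzyme A20, rose by 1.41 ± 0.13 and 1.12 ± 0.13. Traf1, a signalling adaptor gene, rose by 1.35 ± 0.12 and the kinase gene Ikbke by 0.99 ± 0.13. Leaving out 1 array left 14 to 17 of these genes and 11 to 14 of the cytokine and chemokine genes called as higher.

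The promoters of Cxcl1 and Cxcl2 each hold the κB letters, GGGA then any base then TTTCC, searched on both strands and shown in capitals.
Cxcl1: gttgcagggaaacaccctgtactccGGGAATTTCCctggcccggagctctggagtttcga
Cxcl2: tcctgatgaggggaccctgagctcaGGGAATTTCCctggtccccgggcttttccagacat
These windows are chr5:90891149-90891208 (+ strand) and chr5:90903777-90903836 (+ strand), and both hold the same letters there. The motif is rare, in 0.411% of all promoter windows and 0.477% of those of tested genes. It was found in 3 of 12 windows of the inflammatory list (25%) and in 3 of 28 windows of the NF-κB list (10.7%). The windows of Tnf and Nfkbie were also searched and held 0 matches.

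Receptor genes of the C-type lectin family that signal through the Fcγ receptor chain rose, while genes of the Fcγ receptors themselves did not. Clec4e, the gene of Mincle, which senses microbial glycolipids and damaged cells, gave 5733 and 4999 with both stimuli and 577 and 704 with IFNγ alone (3.07 ± 0.12). Clec4n, which encodes Dectin-2, gave 7038 and 6299 with both stimuli and 2081 and 2292 with IFNγ alone (1.61 ± 0.10), and Clec4d rose by 1.01 ± 0.10. Clec4d read 8850 and 9081 with both stimuli and 9428 and 9703 in unstimulated cells, whereas Clec4e and Clec4n exceeded their unstimulated arrays. Fcgr1 gave 2151 and 2184 with both stimuli and 3896 and 3721 with IFNγ alone, with the combined arrays below both IFNγ arrays (-0.81 ± 0.11). Fcgr2b, the gene of the inhibitory receptor, gave 2853 and 2724 with both stimuli and 4011 and 5104 with IFNγ alone (-0.70 ± 0.12). Fcgr3 changed by -0.36 ± 0.10, and its call was lost without combined replicate 1 or either IFNγ replicate (adjusted p up to 0.102). Fcgr4 was measured at -0.27 ± 0.10 (adjusted p = 0.0568) and the shared chain gene Fcer1g at 0.05 ± 0.09 (adjusted p = 0.782). Sla, the gene of an adaptor that restrains receptor signalling, fell by 0.97 on the log2 scale, and its other probes ranged up to 0.01. Of the 23 tested members of the Fcγ and ITAM list 4 rose and 8 fell, the median was -0.11, and the 8 depended on single arrays, with 5 without combined replicate 1, 5 without combined replicate 2, 3 without IFNγ replicate 1 and 5 without IFNγ replicate 2.

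The IFNγ programme itself changed in part. Of 20 tested IFNγ target genes 10 did not pass, 8 rose and 2 fell, with a median of 0.12, and leaving out any 1 array left 6 higher and 0 lower. Irf1, the gene of a transcription factor that relays the IFNγ signal, gave 25950 and 22780 with both stimuli and 24340 and 27160 with IFNγ alone (-0.08 ± 0.10), and the guanylate-binding protein gene Gbp2 gave 29100 and 28880 with both stimuli and 27400 and 27400 with IFNγ alone (0.08 ± 0.10). Neither difference passed, and the 3 probes of Gbp2 had both signs. Ubd, which encodes a ubiquitin-like modifier, gave 565 and 681 with both stimuli and 219 and 211 with IFNγ alone (1.53 ± 0.11), the largest increase of that list. Cxcl9, the gene of a T cell chemokine, gave 30370 and 29420 with both stimuli and 19790 and 20730 with IFNγ alone (0.56 ± 0.10), close to the highest intensity on the arrays of 35989. Gbp5, a guanylate-binding protein gene that aids inflammasome assembly, rose by 0.70 ± 0.12, and Batf2, a transcription factor gene, by 0.56 ± 0.11. Among 12 MHC class II genes 4 rose, including Cd74, the invariant chain gene, at 2810 and 2453 with both stimuli and 1579 and 1552 with IFNγ alone (0.75 ± 0.12) and H2-Ab1 at 0.65 ± 0.12. The class II count was 4 without combined replicate 1, 2 without combined replicate 2, 3 without IFNγ replicate 1 and 3 without IFNγ replicate 2. The class II transactivator gene Ciita was at 0.21 ± 0.12 (adjusted p = 0.27), and the receptor genes Ifngr1 and Ifngr2 were at -0.26 ± 0.12 and 0.15 ± 0.12 (adjusted p = 0.14 and 0.478). Antigen presentation by class I, with the immunoproteasome, had 3 increases and 2 decreases among 18 tested genes, and any fit without 1 array called 1 increase and 0 decreases. Of 26 genes known mainly as responsive to type I interferon 5 rose and 1 fell, and the 5 became 4 without combined replicate 1, 2 without combined replicate 2, 2 without IFNγ replicate 1 and 3 without IFNγ replicate 2.

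Immediate early genes, which are transcribed within minutes of a stimulus, and feedback genes of the ERK kinase pathway included further increases at 6 h. Of 22 tested members 7 rose and 0 fell, and 5 were called without any 1 array. Phlda1, a gene of a pleckstrin-like protein, gave 559 and 632 with both stimuli and 258 and 247 with IFNγ alone (1.24 ± 0.12). Ets2, a transcription factor gene downstream of ERK, gave 1894 and 2157 with both stimuli and 978 and 932 with IFNγ alone (1.08 ± 0.12). Ier3, a stress-response gene, rose by 0.87 ± 0.11 and Dusp16, which encodes a phosphatase of stress kinases, by 0.56 ± 0.12. Both combined arrays of Phlda1 and Ets2 lay above both IFNγ arrays.

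Most tested genes of the cell cycle fell. Of 50 tested DNA replication genes 36 fell (72.0%), 0 rose and 14 did not pass, with a median of -0.56. Of 43 tested mitosis genes 32 fell (74.4%), 0 rose and 11 did not pass, with a median of -0.65. In bulk RNA, fewer cycling cells and less of each transcript per cycling cell cannot be told apart. Leaving out 1 array left 28 to 33 replication genes and 27 to 32 mitosis genes called as lower, with 0 called as higher each time.

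Uhrf1, which encodes a factor that carries DNA methylation through replication, gave 697 and 625 with both stimuli and 1780 and 1932 with IFNγ alone (-1.49 ± 0.14). Mcm4, a subunit gene of the replicative helicase, gave 1174 and 1101 with both stimuli and 2695 and 2806 with IFNγ alone (-1.27 ± 0.11). Rrm1, the large subunit gene of ribonucleotide reductase, gave 518 and 772 with both stimuli and 1274 and 1358 with IFNγ alone (-1.06 ± 0.15). For each of these the combined arrays lay below both IFNγ arrays. Msh6, a mismatch repair gene, fell by 1.36 on the log2 scale. Ung, the uracil glycosylase gene, and Clspn, the gene of the checkpoint mediator claspin, changed by -1.21 ± 0.11 and -1.14 ± 0.12, while their weakest probes changed by -0.22 and -0.03. Among mitosis genes, Anln, which encodes the cleavage furrow protein anillin, gave 573 and 602 with both stimuli and 1473 and 1445 with IFNγ alone (-1.31 ± 0.11). Cdc20, an activator gene of the anaphase-promoting complex, gave 759.7 and 825 with both stimuli and 1724 and 1749 with IFNγ alone (-1.13 ± 0.12). Plk1, a mitotic kinase gene, changed by -1.11 ± 0.12, and Kif23, a kinesin gene of cytokinesis, by -1.15 ± 0.12.

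Upstream of the replication genes, Ccnd1, which encodes the G1 cyclin D1, gave 6119 and 6530 with both stimuli and 12780 and 14910 with IFNγ alone (-1.13 ± 0.12). Cdk2, the gene of the G1/S kinase, gave 877 and 1192 with both stimuli and 2005 and 1924 with IFNγ alone (-0.94 ± 0.13). The kinase inhibitor gene Cdkn2c was lower too, at -0.97 ± 0.11 while its 2 probes ranged from -0.97 to -0.13, as was the stress regulator gene Sesn1 at -0.93 ± 0.11. Among the genes that rose in the same list were the growth arrest genes Gadd45g, at 3054 and 3522 with both stimuli and 1482 and 1391 with IFNγ alone (1.19 ± 0.11), and Gadd45b at 0.77 ± 0.13. In all, 10 of 29 tested growth control genes fell and 4 rose. E2f1, the gene of a transcription factor that drives S phase genes, changed by -0.57 ± 0.12, and its call was lost without IFNγ replicate 1 (adjusted p = 0.055). Rb1 was at -0.36 ± 0.15 (adjusted p = 0.112).

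E2F factors bind letters such as TTTCCCGC, TTTGGCGC and TTTCGCGC, and 1 match on either strand is in capitals in each of these promoter windows of genes that fell.
Uhrf1: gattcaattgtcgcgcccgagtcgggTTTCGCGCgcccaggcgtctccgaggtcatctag
Cdca7: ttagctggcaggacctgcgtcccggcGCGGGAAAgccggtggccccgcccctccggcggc
The windows are chr17:56304102-56304161 (+ strand) for Uhrf1 and chr2:72476122-72476181 (+ strand) for Cdca7, a gene of DNA methylation maintenance that gave 349.5 and 270.2 with both stimuli and 750.3 and 743 with IFNγ alone (-1.28 ± 0.13). Windows of Ung and Rrm1, and another window of Uhrf1, were also searched and held 0 matches, while those of Msh6 and Clspn held 1 each. Such letters were in 1.84% of all promoter windows and 3.38% of those of tested genes. They were in 15 of 53 windows of replication list members (28.3%), in 9 of 38 windows of genes that fell at least 2-fold (23.7%) and in 0 of 68 windows of genes that rose as far. The CCAAT box, which mitosis genes often carry, was in 37.4% of all windows and in 25 of 40 windows of the mitosis list (62.5%).

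Histone genes, whose transcripts peak in S phase, included further decreases. H2ac15 gave 3585 and 3840 with both stimuli and 10750 and 10340 with IFNγ alone (-1.51 ± 0.10) and H2ac12 gave 3140 and 3578 with both stimuli and 9541 and 9193 with IFNγ alone (-1.48 ± 0.10). Of 35 tested histone genes 12 fell and 0 rose. Of the 12, 9 were H2A genes, but the number of H2A genes tested is not given here, so no skew towards them is shown. Copies of these genes are nearly identical, so their probes may read each other and single values are uncertain. Without any 1 array 10 to 12 histone genes were called as lower.

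Some metabolic and signalling genes fell outside the cell cycle. Zfp36l1, which encodes a protein that promotes mRNA decay, gave 2053 and 2018 with both stimuli and 5363 and 5986 with IFNγ alone (-1.48 ± 0.10). Pdk1, the gene of a kinase that closes the entry of pyruvate into the citrate cycle, gave 442 and 432 with both stimuli and 982 and 986 with IFNγ alone (-1.17 ± 0.12). Pfkl, a phosphofructokinase gene of glycolysis, gave 1214 and 963 with both stimuli and 2424 and 2235 with IFNγ alone (-1.11 ± 0.12), but its other probe changed by -0.01. Of 23 tested glycolysis and HIF1 target genes 8 fell and 1 rose (median -0.08), and the 8 became 4 without combined replicate 1, 3 without combined replicate 2, 4 without IFNγ replicate 1 and 3 without IFNγ replicate 2. The glucose transporter gene Slc2a1 rose, at 3547 and 3016 with both stimuli and 2378 and 2271 with IFNγ alone (0.49 ± 0.11), and its call was lost without combined replicate 1 (adjusted p = 0.0784). Lbh, a transcriptional cofactor gene, changed by -1.34 ± 0.12, and Hpgds, the hematopoietic prostaglandin D synthase gene, by -1.15 ± 0.13.

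Among the remaining large increases were receptors, enzymes and a channel. Ednrb, the endothelin B receptor gene, gave 3781 and 4299 with both stimuli and 342 and 337 with IFNγ alone (3.57 ± 0.12), although its 3 probes ranged from 0.80 to 3.57. Plpp3, the gene of an enzyme that dephosphorylates lipid mediators, gave 1785 and 1769 with both stimuli and 385 and 406 with IFNγ alone (2.17 ± 0.13), and its other probe changed by 0.25. Gpr84, a receptor gene for medium-chain fatty acids, gave 2397 and 2395 with both stimuli and 627 and 555 with IFNγ alone (2.02 ± 0.12). Mcoln2, which encodes a cation channel of endosomes and lysosomes, gave 2951 and 2867 with both stimuli and 723 and 772 with IFNγ alone (1.96 ± 0.12). Of 37 tested lysosome and phagosome genes 2 rose (5.41%), close to the 6.99% over all features. By limma 0 fell (1 at an unadjusted p under 0.05), against 8.04% over all features. Ass1, whose product makes the precursor from which arginine is rebuilt, gave 2028 and 2181 with both stimuli and 572 and 679.8 with IFNγ alone (1.75 ± 0.16). Mmp14, a membrane-bound matrix protease gene, gave 3195 and 2987 with both stimuli and 1066 and 916 with IFNγ alone (1.64 ± 0.13).

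Whether IFNγ altered what opsonised cells did was tested as an interaction: the change with IFNγ present minus the change made by opsonised cells in its absence, which share no array. Without IFNγ, opsonised cells changed 1147 of 8826 features (13.0%), with 566 higher (6.41%) and 581 lower (6.58%). That split became 657 higher and 391 lower when arrays were centred on housekeeping genes, and the total fell to 688 without unstimulated replicate 1 and 675 without unstimulated replicate 2. Shared increases numbered 287, which is 46.5% of those with IFNγ and 50.7% of those without. Shared decreases numbered 272, which is 38.3% of those with IFNγ and 46.8% of those without. Across the 8826 features the changes correlated at 0.628 (Spearman 0.449), a description across features, which are not independent of each other.

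**Figure D3:**
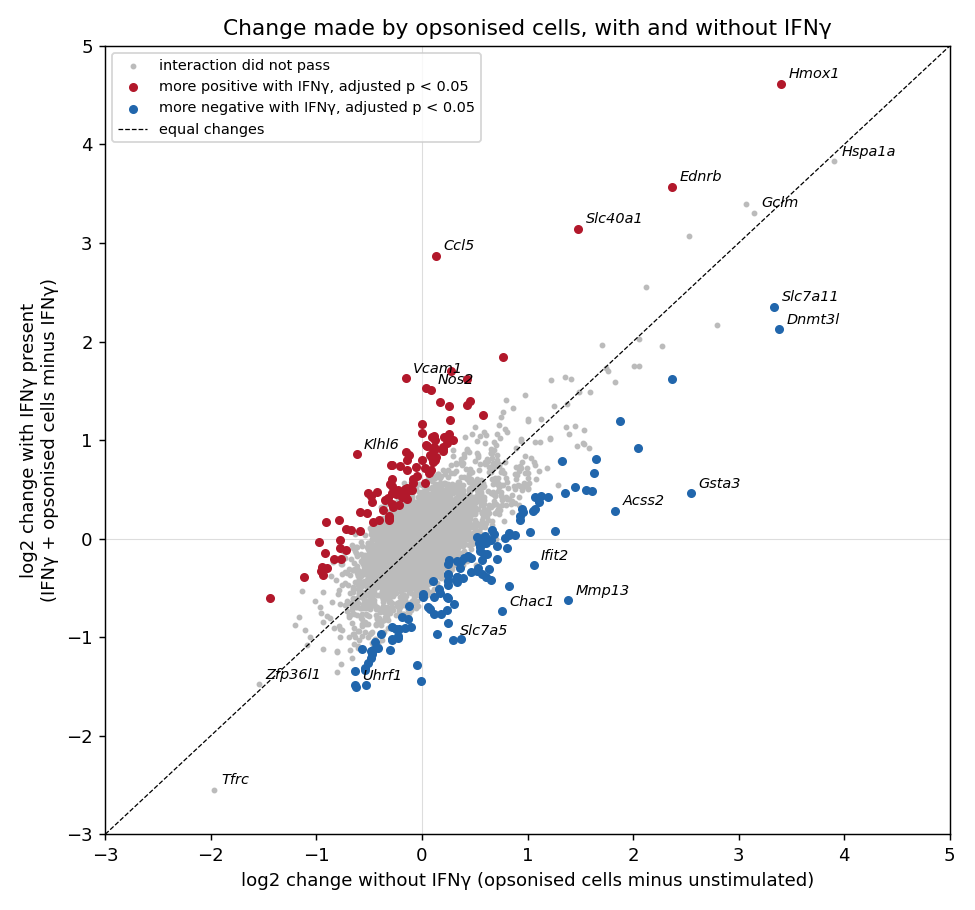
Log2 change made by opsonised cells with IFNγ present (vertical) against that without IFNγ (horizontal) for 8826 features, with called interactions coloured and equal changes dashed. Gclm, Hspa1a and Zfp36l1 lie near the line, Ccl5, Slc40a1 and Hmox1 above it, and Mmp13, Gsta3 and Chac1 below it.

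The interaction passed for 230 features (2.61%), 106 positive (1.20%) and 124 negative (1.40%). Of the 1327 features called in the presence of IFNγ, 160 also passed the interaction. A gene called with IFNγ and not without it was seldom shown to differ: there were 755 such features, and the interaction passed for 104 of them. The 230 fell to 104 without IFNγ replicate 1, 125 without IFNγ replicate 2, 137 without unstimulated replicate 1 and 102 without unstimulated replicate 2. Of 57 named interactions, 31 passed under every alternative setting.

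Ccl5 had the largest positive interaction, 2.74 ± 0.19 (adjusted p = 5.61e-09). Beside the levels given above, it read 267 and 353 with opsonised cells alone and 299 and 262 in unstimulated cells, so the arrays without IFNγ overlapped. Nos2 differed by 1.43 ± 0.17, and all of its arrays without IFNγ lay below the floor, at 183 and 186 with opsonised cells alone and 192 and 158 in unstimulated cells. Vcam1 differed by 1.78 ± 0.17 and read 178 and 203 with opsonised cells alone and 201 and 221 in unstimulated cells, with 1 of these 4 arrays above the floor. Cst7, which encodes the protease inhibitor cystatin F, gave 1629 and 1422 with both stimuli and 640.1 and 531 with IFNγ alone (1.38 ± 0.13) and differed by 1.22 ± 0.18. Oasl1, an interferon-induced translation regulator gene, gave 825 and 825 with both stimuli and 269 and 238 with IFNγ alone (1.71 ± 0.13) and differed by 1.43 ± 0.18, while its 3 probes ranged from 0.32 to 1.71. For 7 of the 22 cytokine and chemokine genes the interaction was positive and called, against 1.20% over all features. For 0 it was negative and called, against 1.40%, and the list's median change was 0.60 with IFNγ and 0.15 without it. Gene by gene the median interaction was 0.18, positive in sign for 13 members and negative for 9. The median with IFNγ was 0.21 with no filter on dim probes and 0.41 with the mean of a gene's probes, settings in which the median without IFNγ is not given here.

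Hmox1 and Slc40a1 reached similar intensities with opsonised cells in both settings, from different starting levels. Hmox1 read 26040 and 24680 with opsonised cells alone and 2342 and 2451 in unstimulated cells, with an interaction of 1.21 ± 0.14, and Slc40a1 read 26320 and 26470 with opsonised cells alone and 9215 and 9689 in unstimulated cells, with an interaction of 1.66 ± 0.13. In each case the arrays with IFNγ alone lay below the unstimulated arrays, and the combined arrays lay slightly below the arrays with opsonised cells alone. All of these upper values are near the top of the intensity scale, and whether that limits the readout was not tested.

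Of 27 tested members of the amino acid and endoplasmic reticulum stress list 2 rose and 8 fell with IFNγ present (median -0.07), while 8 rose and 0 fell without it (median 0.13). The count of 8 lower was 5 without combined replicate 1, 5 without combined replicate 2, 4 without IFNγ replicate 1 and 4 without IFNγ replicate 2. The interaction was negative and called for 10 of the 27, against 1.40% over all features, and positive and called for 0. It was called for 6 of them without IFNγ replicate 1, opsonised replicate 2 or unstimulated replicate 2. Asns, the asparagine synthetase gene, gave 1177 and 1326 with both stimuli and 2219 and 2312 with IFNγ alone (-0.86 ± 0.12), whereas it read 1259 and 1364 with opsonised cells alone and 1229 and 991 in unstimulated cells (0.25 ± 0.12; interaction -1.11 ± 0.17). Slc7a5, the gene of the large neutral amino acid transporter, gave 663 and 659.7 with both stimuli and 1435 and 1271 with IFNγ alone (-1.03 ± 0.13) and differed by -1.32 ± 0.19. Chac1, which encodes a glutathione-degrading enzyme, gave 309 and 343 with both stimuli and 498 and 594 with IFNγ alone (-0.74 ± 0.12) but 366 and 382 with opsonised cells alone and 210.1 and 233 in unstimulated cells (0.76 ± 0.12). Atf4, the gene of the transcription factor that induces these genes, was at -0.29 ± 0.12 with IFNγ (adjusted p = 0.117) and 0.53 ± 0.12 without it (adjusted p = 0.0048), an interaction of -0.82 ± 0.17. This interaction of Atf4 was lost in 3 of the alternative settings (adjusted p up to 0.0819).

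**Figure D4:**
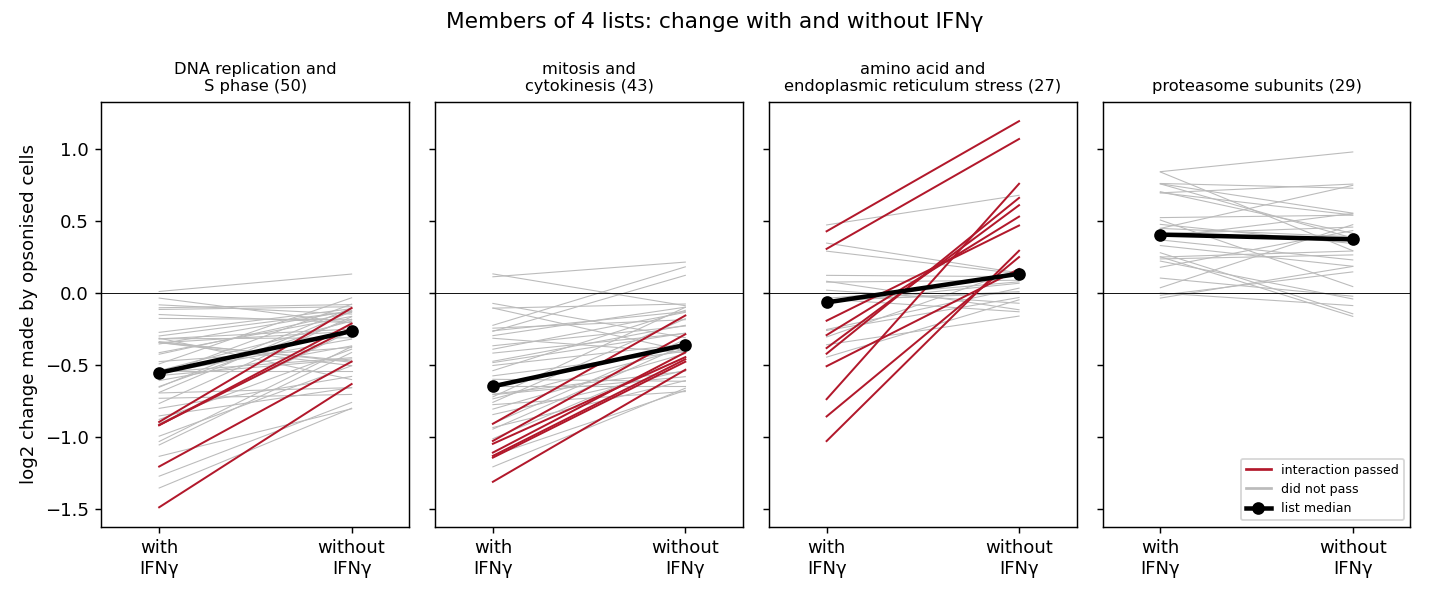
Log2 change made by opsonised cells with IFNγ (left of each panel) and without it (right) for each tested member of 4 lists, members with a called interaction in red and list medians in black. Replication and mitosis medians are lower with IFNγ (-0.56 and -0.65) than without (-0.27 and -0.36), and proteasome medians are close (0.40 and 0.37).

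Fewer cell cycle genes were called as lower without IFNγ. Without IFNγ 19 of 50 replication genes and 22 of 43 mitosis genes fell, with medians of -0.27 and -0.36. Over all 8826 features the interaction was negative in sign for 4428 and called as negative for 1.40%. It was negative in sign for 41 of the 50 replication genes and called for 5. Among the 43 mitosis genes it was negative in sign for 37 and called for 7. These calls rested on few arrays: without unstimulated replicate 2 they were 0 replication and 3 mitosis genes, without unstimulated replicate 1 they were 2 and 2, without IFNγ replicate 1 they were 1 and 2, and without IFNγ replicate 2 they were 1 and 1. Without combined replicate 2 or opsonised replicate 2 both numbers were also lower. Without combined replicate 1 only the mitosis number was lower. Leaving out opsonised replicate 1 lowered neither number. The 19 and 22 decreases without IFNγ became 12 and 12 without unstimulated replicate 1, and 14 and 12 without unstimulated replicate 2. Cdca7 differed by -1.23 ± 0.18 and read 702 and 731 with opsonised cells alone and 753 and 729 in unstimulated cells. Ccnd1 differed by -0.83 ± 0.17 and read 3048 and 4135 with opsonised cells alone and 4427 and 4318 in unstimulated cells, a call lost in 1 alternative setting (adjusted p = 0.0729).

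The NRF2 list had 16 members called as higher with IFNγ and 18 without it, and medians of 0.66 and 1.22. Gene by gene the difference was smaller, with a median interaction of -0.06, positive in sign for 8 members and negative for 14. The interaction was called for 3 of the 22, all negative, against 1.40% negative over all features. The same number was called without any 1 array. Gclm and Srxn1 differed by 0.17 ± 0.17 and 0.33 ± 0.17 (adjusted p = 0.715 and 0.366). Gsta3, a glutathione transferase gene, gave 247 and 338 with both stimuli and 216 and 204 with IFNγ alone (0.46 ± 0.16, adjusted p = 0.055, but called in 4 alternative settings with a change of up to 0.92) but 1920 and 1279 with opsonised cells alone and 258 and 277 in unstimulated cells (2.55 ± 0.16), the largest negative interaction at -2.09 ± 0.23. Slc7a11 had an interaction of -0.98 ± 0.17, which has no settled size because its change with IFNγ is a lower bound. The limma interaction passed for 0 of 29 proteasome genes, of which 4 were positive and 2 negative at an unadjusted p under 0.05. Mmp13, a collagenase gene, changed sign: it gave 5153 and 4552 with both stimuli and 6707 and 8330 with IFNγ alone (-0.63 ± 0.12) but 1661 and 1732 with opsonised cells alone and 632 and 669 in unstimulated cells (1.38 ± 0.12), an interaction of -2.01 ± 0.16, and the changes of its 3 probes with IFNγ ranged from -0.63 to 0.00.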

How the data were processed

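The authors deposited normalized intensity values of 25697 probes for 8 arrays, for which the submitters' processing notes name GenomeStudio. How it was set, including the normalization, is not given in the sources used here. The largest difference between arrays at any rank was 0.961%, and the most frequent value was about 174.6, as quantile normalization with background kept would leave the intensities. This understates changes of dim genes. A further table was not used because none of its 16 per-sample columns is named for a sample.

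Log2 intensities were fitted by limma 3.58.1 in R 4.3.3 (4 group means, eBayes with trend, 4 residual and 22.3 total degrees of freedom), with Benjamini-Hochberg adjustment over 8826 features. Probes were kept (11591, 45.1%) when above the mode plus 1.64 times the SD below it, 205.3, on both arrays of a group. A gene took its brightest probe. The array annotation gave 1 symbol for 23978 probes and none for 1719, and 23962 matched the reference gene table. For an "at least" fold, a dim array counted at the floor, or at its own signal where that was higher. The fit was tested on simulated data.

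The comparison, its 42 gene lists and the tests were chosen with earlier results of these data known. Named genes were the 20 largest increases and 20 largest decreases among those called with non-overlapping arrays, up to 6 called members per list, the 10 largest interactions each way, and receptor and regulator genes. Alternatives were the 4 arrays with IFNγ only, cyclic loess, housekeeping centring, no filter, a stricter filter, mode subtraction with an offset of 50, every probe, mean of probes, no trend, a replicate block and leaving out each array. The number of arrays limits the precision. Promoter windows came from RefSeq (GRCm38.p6).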

Additional observations from a re-analysis of the deposited data

Results flagged for a closer look

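The change made by opsonised cells differed with and without IFNγ, by the interaction test in limma, for 230 features, and the 57 of these that are named follow with their interaction on the log2 scale, the change with IFNγ minus the change without it.

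Among mediators and their signalling, Ccl5 was at 2.74, Ccl3 at 0.95, Nos2 at 1.43, Vcam1 at 1.78 and Traf1 at 1.09. For Ccl3 the arrays with IFNγ alone lay below the unstimulated arrays. Among interferon-related genes Ubd was at 1.49, Oasl1 at 1.43, Cd74 at 1.03, Cish at 0.91 and Ifi205 at 0.80. Gbp2, Ifit2 and Ifit3 had negative values of -1.18, -1.33 and -1.30, and IFNγ alone already gave higher levels of each than no stimulus. Among heme and oxidative stress genes Slc40a1 was at 1.66, Hmox1 at 1.21, Spic at -0.75, Slc7a11 at -0.98 and Gsta3 at -2.09. Both arrays with IFNγ alone lay below the floor for Spic, Slc7a11 and Dusp4, so their change with IFNγ is a lower bound and their interaction has no settled size. The same holds for Nos2 and Ifi205, below the floor on all arrays without IFNγ, and for Vcam1, Ubd, Oasl1 and Traf1, below it on both arrays of opsonised or of unstimulated cells.

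Among receptors and adhesion genes Ednrb was at 1.20, Mertk at 0.98, Clec4d at 0.71, Itgb5 at 0.57, Cd47 at -0.67, Mgl2 at -0.72, Tlr13 at -0.96 and Sla at -1.11. The ubiquitin ligase adaptor gene Klhl6 was at 1.48 and the protease inhibitor gene Cst7 at 1.22. Among cell death and growth genes Bcl2a1d was at 0.68, Mlkl at -0.65, Gadd45g at -0.69, Dusp4 at -0.69, Lbh at -0.71 and Ccnd1 at -0.83.

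In the cell cycle Kif23 and Cdc20 were both at -0.67, Plk1 at -0.70, Ung at -0.73, Anln at -0.78, Uhrf1 at -0.86 and Cdca7 at -1.23. The histone genes H2ac24, H2ac11, H2ac7, H2ac15 and H2ac12 were at -0.73, -0.76, -0.80, -0.88 and -0.95. Among amino acid stress and metabolic genes Aldh18a1 was at -0.68, Pdk1 at -0.70, Pmvk at -0.77, Atf4 at -0.82, Slc2a1 at -1.06 and Asns at -1.11. Slc7a5 was at -1.32, Chac1 at -1.5 and Acss2, an acetyl-CoA synthetase gene, at -1.55. Dnmt3l, the gene of a cofactor of DNA methyltransferases, was at -1.26, and the collagenase gene Mmp13 at -2.01.

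Of these 57 calls 26 were lost in at least 1 alternative setting. Itgb5 was lost in 12 settings, Mlkl in 8, and Bcl2a1d, Dusp4, Ifi205 and Plk1 in 7 each (adjusted p up to 0.441, for Dusp4). Aldh18a1, Cd47, Gadd45g, Kif23, Lbh, Pdk1, Spic and Ung were lost in 6 each, Cdc20, H2ac11 and Mgl2 in 5, Pmvk and Uhrf1 in 4, and Atf4 and Cish in 3. Clec4d was lost in 2, and Ccnd1, Gbp2, Sla and Slc7a11 in 1 each.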

How the results depend on the processing

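No called change of a named gene changed sign under any alternative. The count of changes with IFNγ ranged from 1114 (no filter on dim probes) to 1614 (every probe as its own feature) over 10 alternatives that keep all arrays of the comparison, the interaction count from 187 to 301 and the count without IFNγ from 941 to 1416. The median of all features stayed within 0.033 of 0 in each. Leaving out 1 array gave 725 to 1025 calls with IFNγ (342 to 503 higher, 383 to 522 lower), 102 to 249 interactions (47 to 114 positive, 54 to 135 negative) and 675 to 947 calls without IFNγ (366 to 488 higher, 309 to 459 lower). A lone array is then assumed to vary like the other groups. Of the 179 called named genes 62 lost their call in at least 1 of these fits, and 22 also in another setting. With the replicate number as a block, 1296 features were called with IFNγ (600 higher, 696 lower), 225 interactions (108 positive, 117 negative) and 1093 without IFNγ (546 higher, 547 lower). Deviations of same-numbered arrays from their group means correlated at -0.0427 to 0.0447, so no deviation shared by same-numbered arrays was seen. These values cannot show whether same-numbered arrays came from the same culture or mouse, which the labels do not say.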

Other observations

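Of the Toll-like receptor genes that are named here, 4 fell and 1 rose when opsonised cells were added to IFNγ. These genes were named because they were called, so the counts do not describe the whole family. Its uncalled members are not given here, and over all features 8.04% fell and 6.99% rose. The endosomal nucleic acid sensor gene Tlr13 gave 998 and 1275 with both stimuli and 1819 and 1904 with IFNγ alone (-0.72 ± 0.13), and its relative Tlr7 gave 1056 and 1094 with both stimuli and 1735 and 1596 with IFNγ alone (-0.63 ± 0.11). Tlr8, another endosomal sensor gene, changed by -0.54 ± 0.12, and Tlr4, the receptor gene for bacterial lipopolysaccharide, by -0.59 ± 0.12, a call lost without IFNγ replicate 1 (adjusted p = 0.0665). Tlr2, a surface receptor gene for bacterial lipoproteins, was higher at 2316 and 2102 with both stimuli and 1572 and 1442 with IFNγ alone (0.55 ± 0.11). Of 22 tested genes for the uptake of dying cells 7 fell and 0 rose by limma (3 at an unadjusted p under 0.05), and the 7 became 4 without combined replicate 1, 2 without combined replicate 2, 3 without IFNγ replicate 1 and 3 without IFNγ replicate 2. P2ry6, a nucleotide receptor gene, gave 5363 and 4720 with both stimuli and 8524 and 7511 with IFNγ alone (-0.67 ± 0.10), and Havcr2, which encodes TIM-3, changed by -0.70 ± 0.13. Mrc1, the mannose receptor gene, changed by -0.43 ± 0.10. Mertk, a receptor gene for dying cells that is counted in the macrophage lists and not in that one, rose, at 2092 and 1870 with both stimuli and 1476 and 1392 with IFNγ alone (0.47 ± 0.11), and its call was lost without combined replicate 1 or IFNγ replicate 2 (adjusted p up to 0.0827).

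Feedback genes that limit inflammation were among those that moved both ways. Dusp1, the gene of a phosphatase that switches off stress kinases, gave 884 and 1008 with both stimuli and 359 and 328 with IFNγ alone (1.46 ± 0.12), Il1rn, the interleukin 1 receptor antagonist gene, gave 4004 and 3621 with both stimuli and 2234 and 2340 with IFNγ alone (0.74 ± 0.11), and Zfp36, an mRNA decay gene related to Zfp36l1, changed by 0.57 ± 0.11. Dusp1 read 846.8 and 981.7 in unstimulated cells, which overlapped its combined arrays. Tsc22d3, which encodes the glucocorticoid-induced leucine zipper, gave 953 and 843 with both stimuli and 1439 and 1617 with IFNγ alone (-0.77 ± 0.12). Fas, a death receptor gene, gave 2121 and 2073 with both stimuli and 982 and 936 with IFNγ alone (1.13 ± 0.11), and Bcl2l11, the gene of the death-promoting protein BIM, gave 519.5 and 468 with both stimuli and 948 and 854 with IFNγ alone (-0.87 ± 0.12). Lipa, the lysosomal acid lipase gene, and Nr1h3, which encodes the sterol sensor LXRα, changed by 0.67 ± 0.13 and 0.68 ± 0.12. Of 16 tested LXR and lipid efflux genes 14 did not pass, a share similar to the 7499 of 8826 over all features.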
